A study of Mus musculus with 29 samples.

Results

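TRBV31 and TRBV30 are the V segments of the T cell receptor beta chain (TRB) that lie nearest to the D, J and constant genes in the mouse. Their members were taken from a combined table of TRB and alpha chain (TRA) clonotypes, where a clonotype pairs 1 V with 1 J segment and 1 translated CDR3. Clonotypes whose V segment was named exactly V31 or V30 and whose CDR3 was fully resolved were kept, which gave 574 of TRBV31 and 130 of TRBV30, or 704 of 27384 TRB clonotypes (2.57%). They held 5211 and 3656 counts, or 8867 of 289365 TRB counts (3.06%). A CDR3 with an unresolved residue removed 1 clonotype of TRBV31 and 2 of TRBV30, and 1 name that joined V31 with another segment, holding 1 count, was left out.

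The beta chain gene is assembled in the thymus by joining a D to a J segment and then a V segment to the pair. In the RefSeq gene order of mouse (assembly GRCm38.p6), Trbv30 is the last V segment before Trbd1, the TRBJ1 cluster and Trbc1. Trbd2, the TRBJ2 cluster and Trbc2 follow, and Trbv31 comes after them all. Trbv31 points the other way and joins by inversion, where the V segments upstream, Trbv30 among them, join by deletion of the DNA in between. A joint with Trbd1 can use either TRBJ cluster, whereas Trbd2 lies beyond the TRBJ1 cluster and normally joins TRBJ2. The older names of the products are Vβ14 for TRBV31 and Vβ18 for TRBV30. The CDR3 is the loop made at the joint, which usually lies over the peptide in the complex of peptide and MHC.

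The samples came from metastases in the ovary and in the brain of mice with a Braf-mutated melanoma, a model the labels call experimental, and the series title asks about an antibody against PD-L1 given ahead of a MAPK inhibitor combination. PD-L1 binds the checkpoint receptor PD-1 of T cells, and trametinib blocks MEK, a kinase of the MAPK pathway. The 5 treatments were an anti-PD-L1 lead-in and then both trametinib and anti-PD-L1 (the lead-in combination, day 3), the lead-in alone (day 0), trametinib with anti-PD-L1 (the concurrent combination, day 3), trametinib (day 3) and no treatment (day 0, called vehicle in the titles). The ovary had 2 samples of each treatment, and the brain had 4 of each but 3 untreated ones, which made 29 samples. Each title carries a number, and all but 1 a part of that number. The ovary had 1 number per treatment (12, 10, 1, 13 and 3, in the order of treatments above) and the brain 2 (12 and 14, 10 and 11, 1 and 6, 8 and 13, 3 and 7). What a number and a part stand for (animal, piece of tissue or other) is not in the labels, and p-values here reflect only how far numbers spread. The strain and age of the mice are not stated in the labels.

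TRB depth ran from 16179 to 51674 counts per ovary sample and from 266 to 7067 per brain sample. Whether counts are of reads or of molecules is not stated. Intervals for single values are 95% exact Clopper-Pearson intervals and cover counting error only. In these bulk samples a share of counts cannot tell fewer cells that use a segment from less RNA per cell.

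The CDR3 starts set the segments apart from other TRBV names. Of the 574 TRBV31 clonotypes, 549 (95.6%) began with the residues CAW and 443 with CAWS. Of the 130 TRBV30 clonotypes, 122 (93.8%) began with CSS and 79 with CSSR. Among 26680 clonotypes of other TRBV names, CAW began 2 and CSS began 190. The clonotypes below are shown because they carry the largest shares of each segment or recur across numbers, each with its segment and TRBJ partner.
TRBV31 with TRBJ2-1, ovary of lead-in number 10: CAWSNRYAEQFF
TRBV31 with TRBJ2-5, both organs of concurrent number 1: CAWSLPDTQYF
TRBV31 with TRBJ1-2, both organs of lead-in combination number 12: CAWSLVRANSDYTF
TRBV31 with TRBJ1-3, brain of concurrent number 6: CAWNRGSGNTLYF
TRBV31 with TRBJ2-1, shared by numbers 10 and 13: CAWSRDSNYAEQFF
TRBV31 with TRBJ2-1, shared by numbers 3 and 12: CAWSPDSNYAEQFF
TRBV30 with TRBJ1-1, lead-in number 10: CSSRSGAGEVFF
TRBV30 with TRBJ2-5, ovary of trametinib number 13: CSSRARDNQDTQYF
TRBV30 with TRBJ2-5, brain of trametinib number 13: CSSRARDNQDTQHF
TRBV30 with TRBJ2-1, ovary of untreated number 3: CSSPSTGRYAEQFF
TRBV30 with TRBJ2-7, shared by numbers 11 and 13: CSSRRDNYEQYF
TRBV30 with TRBJ1-1, shared by numbers 1 and 6: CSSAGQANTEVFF

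TRBV31 was a minor beta segment and TRBV30 a rare one, in both organs. With the parts of a number summed, TRBV31 averaged 1.80% ± 0.63 of TRB counts in ovary (SD, n = 5 numbers), rank 18 of 25 single-named TRBV segments, and 2.04% ± 0.89 in brain (n = 10), rank 19 of 24. TRBV30 averaged 1.08% ± 1.27 in ovary and 0.343% ± 0.209 in brain, rank 21 in each organ. As a share of distinct clonotypes, which gives each joint the same weight whatever its expansion, TRBV31 made up 1.99% ± 0.19 in ovary and 2.35% ± 0.68 in brain. TRBV30 made up 0.442% ± 0.141 in ovary and 0.447% ± 0.217 in brain. Thus the organ means of TRBV30 lay far apart by counts and close together by clonotypes.

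**Figure D1:**
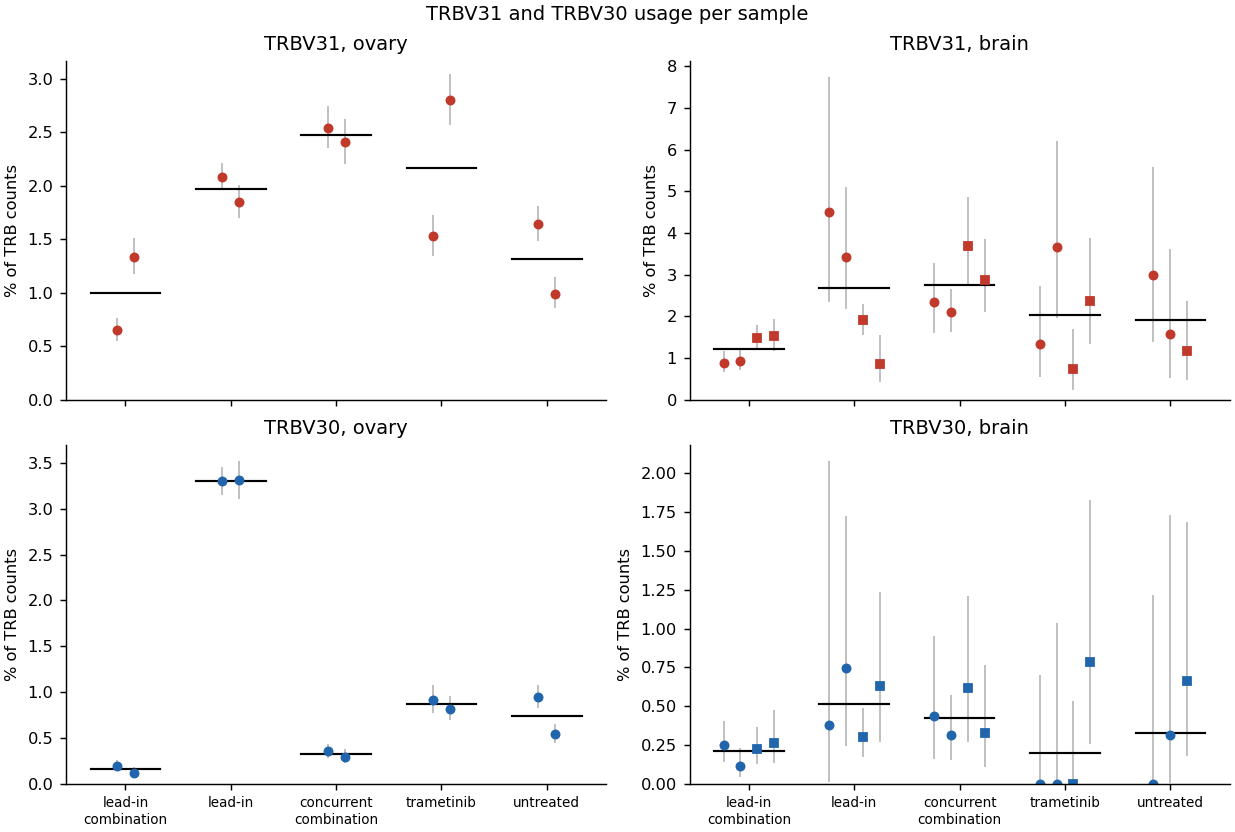
Share of TRB counts held by TRBV31 (top) and TRBV30 (bottom) in each ovary sample (left) and brain sample (right), by treatment, as a percentage. Points are samples, circles and squares mark the numbers within a treatment, grey bars are 95% exact intervals of counting error and black lines are group means. The TRBV30 panel of the ovary shows the lead-in samples at 3.30% and 3.31%, above every other ovary sample.

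TRBV31 in brain overlapped between most treatments. The lead-in combination samples held 0.889%, 0.930%, 1.47% and 1.52% TRBV31, the lowest group mean (1.20% ± 0.34, SD, n = 4 samples). The lead-in samples spanned the widest range, with 4.51% and 3.42% in number 10 and 1.90% and 0.864% in number 11. The concurrent combination held 2.33%, 2.10%, 3.69% and 2.88%, all above the lead-in combination. With parts summed and the largest TRBV31 clonotype left out, the 2 treatments overlapped. Concurrent numbers 1 and 6 were then at 1.89% and 1.12%, and lead-in combination numbers 12 and 14 at 0.781% and 1.33%. Trametinib samples held 1.33%, 3.67%, 0.726% and 2.36%, and untreated ones 2.98%, 1.56% and 1.16%. In the ovary TRBV31 was at 0.648% and 1.33% after the lead-in combination, 2.08% and 1.84% in the lead-in, 2.54% and 2.40% in the concurrent combination, 1.53% and 2.80% in trametinib and 1.64% and 0.991% in untreated samples. The 2 parts of trametinib number 8 in brain, at 1.33% and 3.67%, lay on either side of every brain group mean but that of the lead-in combination.

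TRBV30 was scarce enough in brain that several samples held none. It was at 0.247%, 0.112%, 0.226% and 0.265% with the lead-in combination, at 0.376%, 0.744%, 0.301% and 0.628% in the lead-in and at 0.437%, 0.313%, 0.615% and 0.327% in the concurrent combination. Of the trametinib samples, 3 held 0 counts and the fourth 0.787% (5 of 635 counts). The exact intervals of these 0 counts reach up to 0.698%, 1.04% and 0.534%. Untreated samples held 0 counts (interval up to 1.21%), 0.313% and 0.661%. In the ovary, where depth was higher, no sample was at 0, and TRBV30 held 0.194% and 0.122% in the lead-in combination, 3.30% and 3.31% in the lead-in, 0.354% and 0.296% in the concurrent combination, 0.915% and 0.817% in trametinib and 0.946% and 0.541% in untreated samples.

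No treatment comparison passed for either segment in brain. Counts of 99 V segments of both chains were fitted together over 10 brain libraries with edgeR's quasi-likelihood test, and the background was 0% of segments called in each of 5 contrasts and in the test over the 5 treatments. At an unadjusted p below 0.05, edgeR had 5 segments in each contrast but 4 for the lead-in combination against the lead-in, and 2 over the 5 treatments. DESeq2 also called 0. The largest difference of TRBV31 was a log2 value of -1.17 ± 0.75 (SE) for the lead-in combination over the concurrent combination (edgeR, Benjamini-Hochberg adjusted p = 0.794). By distinct clonotypes that difference was 0.13 (adjusted p = 0.904), with the sign turned. With the largest clonotype of each segment left out it was -0.21 ± 0.80 (edgeR, adjusted p = 0.965). Against the lead-in alone the log2 value was -1.15 ± 0.76 (adjusted p = 0.933). The lead-in over untreated gave 0.64 ± 0.80, trametinib over untreated 0.14 ± 0.81 and the concurrent combination over trametinib 0.52 ± 0.77. For TRBV30 the 5 log2 values ran from -1.19 ± 1.28, for the lead-in combination over the lead-in, to 0.96 ± 1.41, for the concurrent combination over trametinib. That last value was 0.095 without number 8. The TRBV31 value of the lead-in combination over the lead-in was -0.50 without number 10. Over the 5 treatments the adjusted p was 0.911 for both segments. Across all TRBV segments tested the median log2 difference lay between -0.10 and 0.05 in these contrasts. With standard errors this wide, differences of about this size were not detectable with 2 numbers per treatment.

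Between organs, neither segment passed a test, and the size of the TRBV30 difference changed when number 10 was left out, when the number was fitted as a block and when clonotypes replaced counts. Over the 5 numbers sampled in both organs, TRBV30 averaged 1.08% ± 1.27 in ovary and 0.341% ± 0.193 in brain, and was higher in ovary in numbers 10 (3.30% against 0.640%), 13 (0.862% against 0.378%) and 3 (0.769% against 0.161%). In numbers 1 (0.327% against 0.350%) and 12 (0.161% against 0.179%) ovary and brain were nearly level. The log2 difference was 1.70 ± 0.79 (edgeR, unadjusted p = 0.0469, adjusted p = 0.347). It was 0.97 without number 10 (adjusted p = 0.849) and 0.93 ± 0.61 with the number as a replicate block (adjusted p = 0.512). Counting distinct clonotypes it was 0.26 ± 0.38 (adjusted p = 0.815), and leaving out the largest clonotype of each library it was 1.49 ± 0.67 (adjusted p = 0.316). TRBV31 averaged 1.80% ± 0.63 in ovary and 2.11% ± 1.05 in brain (log2 difference -0.21 ± 0.45, adjusted p = 0.891). Of 111 V segments edgeR called 0 (0%), with 15 at an unadjusted p below 0.05, and DESeq2 called 6, all of them TRAV names.

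In the ovary of lead-in number 10, most TRBV30 counts belonged to 1 clonotype. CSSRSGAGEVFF with TRBJ1-1 had 1617 and 868 counts in the 2 ovary samples and 5 counts in 1 brain sample of that number, and 0 counts in all other samples. It made up 92.7% of TRBV30 counts in that ovary and 68.1% of all TRBV30 counts in the series. TRBV30 stood at 3.30% of TRB counts in the ovary of number 10, and at 0.249% once its largest clonotype was left out. With the largest clonotype of each library left out, the 5 ovaries ranged from 0.123% to 0.608%, a narrower span than the 0.161% to 3.30% of all counts.

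Around this clonotype lay many near-identical ones. In number 10, 20 TRBV30 clonotypes with TRBJ1-1 differed from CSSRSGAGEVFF by 1 residue at equal length, and together they had 53 counts, the highest 8. Counting every clonotype that lay 1 residue from another of the same V, J, length and number with at least 20 times its counts, TRBV31 had 31 of 598 (5.18%), TRBV30 27 of 132 (20.5%) and other TRBV names 2209 of 27697 (7.98%), summed over numbers. Of the 27 TRBV30 ones, 21 were in number 10. Without that number the counts were 18 of 469 (3.84%) for TRBV31, 6 of 93 (6.45%) for TRBV30 and 1516 of 21872 (6.93%) for other TRBV names. What gave rise to these near-identical clonotypes was not tested. A further such pair linked the organs of number 13: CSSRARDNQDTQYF had 91 counts in the ovary and 0 in the brain, and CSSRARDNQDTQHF had 4 counts, all in the brain. They differ by Y13H, counted from 1 at the first residue of the CDR3.

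**Figure D2:**
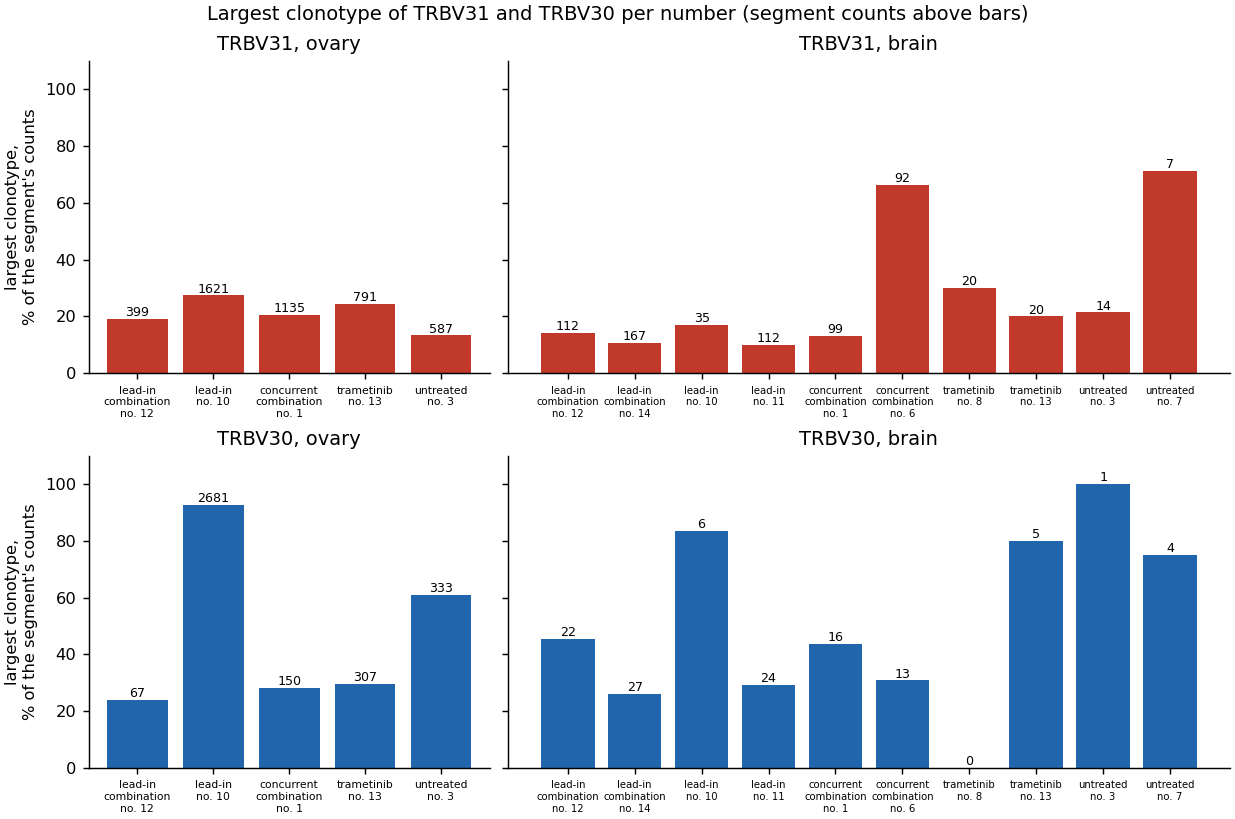
Share of a segment's counts held by its largest clonotype, in percent, for TRBV31 (top) and TRBV30 (bottom), with ovary on the left and brain on the right and 1 bar per number; the segment's counts stand above each bar. In ovary the largest TRBV31 clonotype held 13.3% to 27.4% of TRBV31 counts, and the largest TRBV30 clonotype 23.9% to 92.7% of TRBV30 counts.

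TRBV31 was spread over more clonotypes than TRBV30. Over the series, 31 clonotypes were needed to hold 50% of TRBV31 counts, 1 for TRBV30 and 433 for other TRBV names, which have many more clonotypes. TRBV31 also had more clonotypes than TRBV30, 574 against 130. In ovary the Simpson concentration, the chance that 2 counts of a segment are the same clonotype, was 7.33% ± 1.95 for TRBV31 and 34.4% ± 30.5 for TRBV30 (SD, n = 5 numbers). The TRBV30 value was 86.0% in number 10, and the medians were 8.10% for TRBV31 and 17.5% for TRBV30. The largest TRBV31 clonotype, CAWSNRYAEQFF, had 326 and 118 counts in the ovary of lead-in number 10 and 0 elsewhere. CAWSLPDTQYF had 133 and 56 counts in the ovary and 4 and 9 in the brain of concurrent number 1. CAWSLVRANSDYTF had 21 and 55 counts in the ovary and 5 and 10 in the brain of lead-in combination number 12. Both were present in all 4 samples of their number.

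In brain the leading clonotypes were small in counts. By mean share of TRB counts over the samples of a treatment, the largest TRBV31 clonotype was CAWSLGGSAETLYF with TRBJ2-3 for the lead-in combination (17 of 279 TRBV31 counts), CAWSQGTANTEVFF with TRBJ1-1 for the lead-in (6 of 147), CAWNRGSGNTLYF for the concurrent combination (61 of 191), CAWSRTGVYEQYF with TRBJ2-7 for trametinib (6 of 40) and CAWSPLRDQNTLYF with TRBJ2-4 in untreated samples (3 of 21). For TRBV30 it was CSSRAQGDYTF with TRBJ1-2 for the lead-in combination (10 of 49 TRBV30 counts), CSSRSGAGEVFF for the lead-in (5 of 30), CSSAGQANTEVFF for the concurrent combination (6 of 29), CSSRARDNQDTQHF for trametinib (4 of 5) and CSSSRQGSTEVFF with TRBJ1-1 in untreated samples (3 of 5). By counts in place of mean share, other clonotypes were larger in some groups. For TRBV31 such clonotypes had 18 counts in lead-in combination number 14, 11 in lead-in number 11 and 5 in untreated number 7. For TRBV30 they had 7 counts in lead-in number 11 and 7 in concurrent number 1. The leading clonotypes differed between treatments in each segment, but no number belonged to more than 1 treatment and most clonotypes occurred in only 1 number. This held for 558 of 574 TRBV31, 128 of 130 TRBV30 and 25895 of 26680 other TRBV clonotypes over the series. In the ovary, where each treatment is 1 number, the leading TRBV30 clonotype held 16 of 67 TRBV30 counts in the lead-in combination (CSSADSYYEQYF with TRBJ2-7) and 42 of 150 in the concurrent combination (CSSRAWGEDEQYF with TRBJ2-7). It held 203 of 333 in untreated samples (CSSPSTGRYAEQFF, 152 and 51 counts in the 2 samples).

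Clonality relative to other TRBV clonotypes of the same number did not pass a test for either segment. Counts per distinct clonotype, with organs and parts of a number pooled, averaged 6.60 for TRBV31 and 7.59 for other TRBV names (mean log2 ratio -0.20 ± 0.63, SD, 10 numbers, lower in 7 of 10, exact sign-flip permutation p = 0.350, Benjamini-Hochberg adjusted p = 0.734 over 21 segments). For TRBV30 the averages were 15.9 and 8.76 (mean log2 ratio 0.15 ± 1.14, 8 numbers, higher in 3 of 8, exact permutation p = 0.758, adjusted p = 0.938). Without number 10 the TRBV30 ratio was -0.17, and with the largest clonotype left out -0.28. The same test called 1 of 21 segments (4.76%), TRBV5. Within brain, TRBV31 counts per clonotype were highest in concurrent number 6, at 7.67 against 3.20 for other TRBV names. There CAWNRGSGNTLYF held 61 of 92 TRBV31 counts (66.3%). Differences between the 5 treatments made up 63.0% of the squared deviations of the log2 ratio in brain (exact permutation p = 0.166, adjusted p = 0.598 over 18 segments, 0% called and 11.1% below 0.05 unadjusted).

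TRBV31 joined TRBJ2 segments less often than other TRBV names did. Distinct clonotypes were scored per number, so that an expanded clone counts once. The TRBJ2 share of TRBV31 was 68.9% in number 1, 62.2% in 3, 58.3% in 6, 66.7% in 7, 55.6% in 8, 66.7% in 10, 60% in 11, 61.7% in 12, 58.5% in 13 and 52.5% in 14. That of other TRBV names lay between 66.0% and 70.5%, and only number 1 had a TRBV31 share above that of its other TRBV names. The means were 61.1% and 68.0%, a difference of -6.94 ± 5.49 percentage points (SD, 10 numbers, lower in 9 of 10, exact two-sided sign-flip permutation p = 0.00586, Benjamini-Hochberg adjusted p = 0.0308 over 21 segments). Of the 21 segments, 6 passed (28.6%), and 3 of them were lower (14.3%): TRBV1, the segment at the far upstream end, and TRBV29 fell below other names too. A lower TRBJ2 share was thus no trait of TRBV31 alone. TRBV26 had the lowest mean share (59.3%, adjusted p = 0.10) and TRBV17 the highest (79.97%, adjusted p = 0.0273).

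The TRBV31 call was close to the threshold. The adjusted p was 0.0615 without number 3, 12 or 13 and 0.0586 without number 7, with differences of -7.38 to -6.85 points. It was 0.164 without clonotypes of a single count (-5.79 points), 0.0820 when a number needed 10 clonotypes (-6.43 points) and 0.0527 with near-identical clonotypes merged (-5.96 points). By counts in place of clonotypes the difference was -15.7 points (adjusted p = 0.0410), and in brain alone -9.45 points (adjusted p = 0.0391). In the 5 ovaries it was -3.48 points, and 5 numbers cannot give an exact p below 0.0625.

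The TRBJ2 share of TRBV30 had no steady direction. It was 70% in number 1, 95% in 3, 40% in 6, 30.8% in 10, 60% in 11, 71.4% in 12, 68.4% in 13 and 75% in 14, on 5 to 39 clonotypes each. Numbers 3 and 10 lay at the ends of this range and the other 6 between 40% and 75%. The mean was 63.8% against 67.4% in other TRBV names (-3.60 ± 20.6 points, 8 numbers, lower in 3 of 8, exact permutation p = 0.680, adjusted p = 0.758). Merging near-identical clonotypes raised the share of number 10 to 66.7% (12 of 18 clonotypes) and turned the mean difference to 0.94 points. Without number 10 the difference was 1.12 points. TRBV31 and TRBV30, which lie on opposite sides of the D, J and constant genes, differed by -2.72 ± 21.8 points (61.1% and 63.8%, 8 numbers, TRBV31 lower in 5 and higher in 2, exact permutation p = 0.734).

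**Figure D3:**
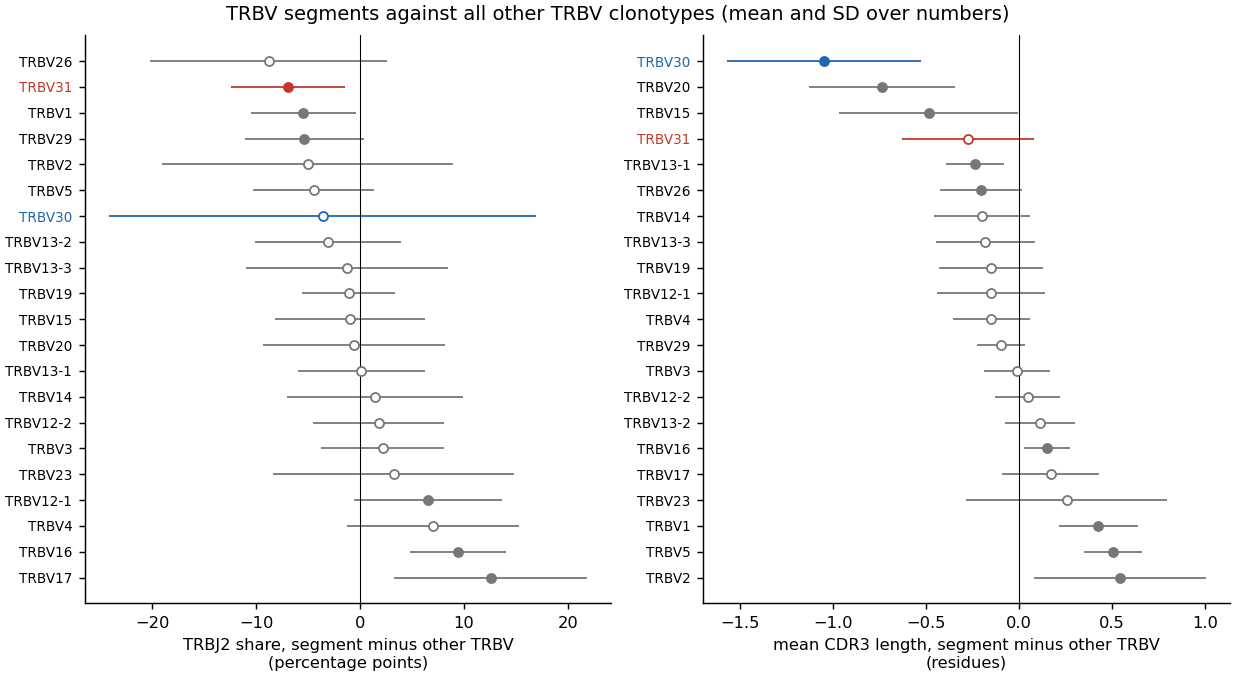
Difference between each of 21 TRBV segments and all other TRBV names in the TRBJ2 share of distinct clonotypes (left, percentage points) and in mean CDR3 length (right, residues). Points are means over 8 to 10 numbers and bars are SDs; filled points passed the exact permutation test after adjustment. TRBV31 (red) lies second from the lower end on the left at -6.94, and TRBV30 (blue) at the lower end on the right at -1.05.

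By counts the pooled TRBJ2 shares were 60.6% for TRBV31, 24.3% for TRBV30 and 69.8% for other TRBV names. The corresponding shares of distinct clonotypes were 64.5% (370 of 574, interval 60.4% to 68.4%), 60.8% (79 of 130, interval 51.8% to 69.2%) and 67.2%. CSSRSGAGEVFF, which uses TRBJ1-1, accounts for 2490 of the 2654 counts of TRBV30 with that J segment. In the ovary, the TRBJ2 share of TRBV31 clonotypes stood at 62.0% for the lead-in combination, 66.7% for the lead-in, 67.4% in the concurrent combination, 58.9% in trametinib and 64.3% in untreated samples. In the brain, with the numbers of a treatment pooled, it was 55.3% (42 of 76), 61.0% (25 of 41), 66.0% (31 of 47), 57.1% (12 of 21) and 50% (5 of 10) in the same order of treatments. The intervals of these 10 shares all overlapped one another. They cover counting error over clonotypes only, so their overlap is no test of treatments. Differences between the 5 treatments made up 25.5% of the squared deviations of the TRBV31 share in brain (exact permutation p = 0.790, adjusted p = 0.999 over 18 segments, 0% called and 16.7% below 0.05 unadjusted). TRBV30 had too few clonotypes for this test.

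**Figure D4:**
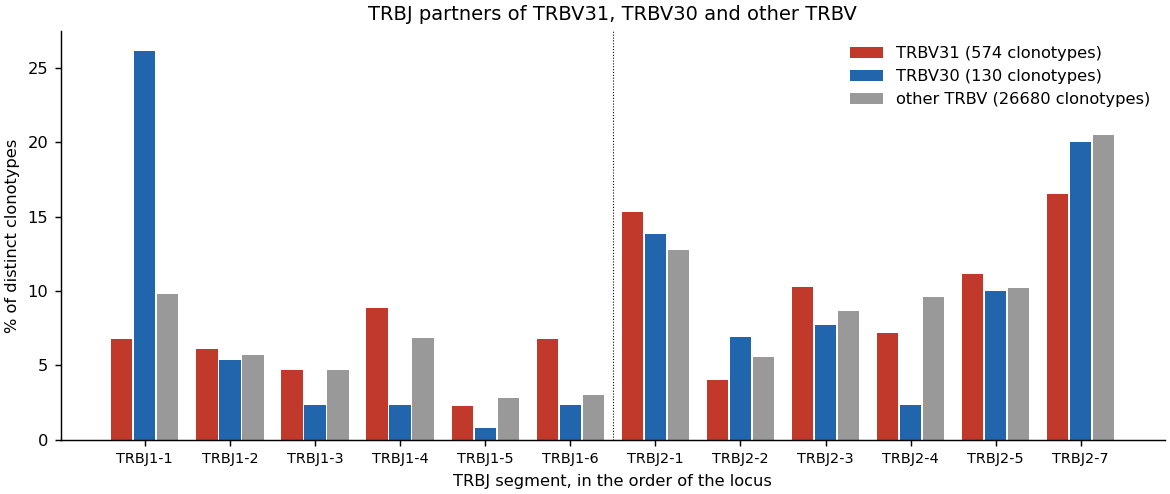
Share of distinct clonotypes, in percent, that use each TRBJ segment, for TRBV31 (red), TRBV30 (blue) and other TRBV names (grey), pooled over all samples. The dotted line divides the TRBJ1 from the TRBJ2 cluster. TRBJ1-6 stands at 6.79% for TRBV31, 2.31% for TRBV30 and 2.98% for other TRBV names, and TRBJ1-1 at 6.79%, 26.2% and 9.78%.

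Among single partners over the pooled clonotypes, TRBJ2-7 was the most frequent for TRBV31 (16.6%) and TRBJ1-1 for TRBV30 (26.2%), ahead of TRBJ2-7 (20%). The order for TRBV30 turned when each number weighed the same, with means of 21.8% for TRBJ2-7 and 18.3% for TRBJ1-1, and number 10 held 24 of the 34 pooled clonotypes with TRBJ1-1. After the data had been seen, all 252 pairs of a TRBV and a TRBJ segment were tested. None passed (0%), with 54 (21.4%) below 0.05 unadjusted. TRBJ1-6 made up 8.38% ± 6.2 of TRBV31 clonotypes per number, against 2.98% ± 0.53 in other TRBV names (higher in 8 of 10 numbers, exact permutation p = 0.0234, adjusted p = 0.179). The share was 0% in numbers 7 and 8, which had 3 and 9 TRBV31 clonotypes, and 3.88% to 17.5% in the rest. TRBJ1-1 made up 18.3% ± 22.0 of TRBV30 clonotypes, against 9.47% ± 0.73 in other names (higher in 5 of 8 numbers, exact permutation p = 0.359, adjusted p = 0.639). The mean difference was 8.86 points, and 2.82 points without number 10. Of the 39 TRBV30 clonotypes of number 10, 24 used TRBJ1-1, and 3 of 18 did so after near-identical ones were merged.

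A recurring TRBV31 family used TRBJ1-6. Of 39 TRBV31 clonotypes with TRBJ1-6, 6 began with CAWS and ended with NSYNSPLYF. They held 528 of the 779 counts of the pair and were found in 8 of 10 numbers, and 3 of the 6 occurred in more than 1 number. The most widely shared of them, 15 residues long, had 313 counts in 10 samples of 6 numbers. Its highest values were 213 and 21 counts in the ovary of concurrent number 1 and 51 and 16 in the ovary of lead-in number 10, and its brain values were 1 to 4 counts. A sister of equal length had 134 counts in 4 numbers. Of the 39 clonotypes, 17 ended in SYNSPLYF. Among other TRBV names, 50 of 794 TRBJ1-6 clonotypes ended in the longer NSYNSPLYF. The 17 and the 50 use different endings and cannot be set against each other. The 6 of 39 in the family share the longer ending but were also chosen by their start, and no test was made of them.

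A few clonotypes of each segment occurred in more than 1 number. Of TRBV31 clonotypes 16 of 574 (2.79%), with 3 of the TRBJ1-6 family among them, occurred in at least 2 numbers, of TRBV30 clonotypes 2 of 130 (1.54%) and of other TRBV names 785 of 26680 (2.94%), so that the TRBV31 share lay near that of other names. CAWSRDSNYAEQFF had 5 and 189 counts in the ovary of trametinib number 13 and 11 and 26 in that of lead-in number 10. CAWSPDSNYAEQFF had 15 counts in 1 ovary sample of lead-in combination number 12, and 56 and 22 in the ovary of untreated number 3. Both shared TRBV30 clonotypes were small: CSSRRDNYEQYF had 3 counts in the brain of number 11 and 5 and 2 in the ovary of number 13, and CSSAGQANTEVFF had 3 counts in a brain sample of each of numbers 1 and 6. Within a number, 21 of 103 brain TRBV31 clonotypes (20.4%), 3 of 17 TRBV30 clonotypes (17.6%) and 1139 of 4398 others (25.9%) were also found in the ovary, which was sequenced deeper.

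TRBV30 had the shortest CDR3s of any TRBV segment tested. Its mean length per number was 12.5 residues in number 10, 12.6 in 11, 12.7 in 12, 12.8 in 1 and in 6, 13.2 in 13, 13.25 in 14 and 14.15 in 3, and number 3 alone was not below its other TRBV names. The means were 13 and 14 residues, a difference of -1.05 ± 0.52 (SD, 8 numbers, shorter in 7 of 8, exact permutation p = 0.0156, adjusted p = 0.0410 over 21 segments). Of the 21 segments, 9 passed (42.9%), and 5 of them were shorter (23.8%). Over the pooled clonotypes, 56 of 130 TRBV30 CDR3s (43.1%) had at most 12 residues, against 13.8% in other TRBV names. Of those 56, 20 lay 1 residue from the 12-residue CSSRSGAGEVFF in number 10. Merging near-identical clonotypes moved the mean TRBV30 length of number 10 to 13.06 residues. The call was lost without any 1 of 7 numbers: leaving out number 1, 6, 10, 11, 12, 13 or 14 gave an adjusted p of 0.0656 or 0.0820. The differences were then -1.09 to -0.98 residues. Each of these sets kept number 3, which went the other way, and so few numbers limit how low an exact p can be. The lost calls thus do not show that the difference rests on any 1 number. Without number 3 the difference was -1.21 with an adjusted p of 0.0273. TRBV31 averaged 13.7 residues against 14 in other TRBV names (-0.27 ± 0.35, 10 numbers, shorter in 8 of 10, exact permutation p = 0.0508, adjusted p = 0.0820). Leaving out number 7, with 3 TRBV31 clonotypes, gave -0.37 and an adjusted p of 0.0182.

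**Figure D5:**
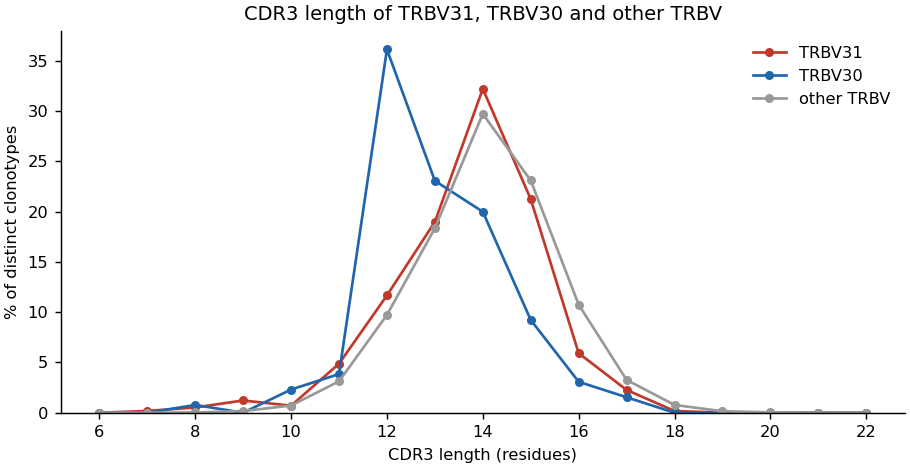
Distribution of CDR3 length in residues over the distinct clonotypes of TRBV31 (red), TRBV30 (blue) and other TRBV names (grey), in percent of clonotypes. CDR3s of at most 12 residues make up 19.2% of TRBV31, 43.1% of TRBV30 and 13.8% of other TRBV clonotypes.

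Across the 15 libraries of a number in an organ, the share of TRBV31 had its highest positive rank correlations with those of TRBV13-1 and TRBV4 (Spearman's rho 0.46 each) and TRBV15 (0.42). In the 10 brain libraries these were 0.31, 0.70 and 0.10. The share of TRBV30 had its highest with TRBV5 (0.56), TRBV13-2 (0.53) and TRBV15 (0.44), and in brain these were 0.12, 0.58 and 0.49. A stronger relation of TRBV31 was negative, with TRBV26 (-0.72, and -0.75 in brain), a segment named after its value was seen. The rho between TRBV31 and TRBV30 was 0.05. These are descriptions over libraries that differ in depth, with shares that sum to a fixed total.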

How the data were processed

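Receptor transcripts were captured with a QIAseq immune repertoire kit, per the labels' protocols. Raw whole-number counts per clonotype and sample, in 1 table, are what the authors deposited. No aligner, clonotype caller or filter is named in the labels. GRCh38, a human build, is named in the submitters' processing notes, so coordinates are left out. The table lists 49519 TRA and TRB clonotypes, of which 133 TRB ones had an unresolved CDR3 and were left out.

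Parts of a number were summed. Usage was tested with edgeR 4.0.16 (R 4.3.3) on V segments that reached 10 counts in 2 or more libraries, offset by the log chain total, with DESeq2 1.42.0 as an alternative. TRBJ2 share, counts per clonotype and CDR3 length were compared with all other TRBV clonotypes of the same number by two-sided exact sign-flip permutation, for segments with at least 3 clonotypes in at least 6 numbers (5 in the alternatives of ovary only and of 10 clonotypes required). Treatments in brain were compared by exact permutation of numbers. Adjusted p-values are by Benjamini-Hochberg over all segments tested, or over the 252 pairs for V and J pairs, with a threshold of 0.05. The test of TRBV31 against TRBV30 was 1 comparison and was not adjusted. Tools were numpy 2.4.6, pandas 2.3.3, scipy 1.17.1 and matplotlib 3.10.9 under Python 3.11.15. The usage test, the permutation tests and the TRBJ2 share were tried on simulated data, and the other steps were not.

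Brain and ovary libraries of the same number were checked for pairing: over 113 segments, the correlation of deviations in V usage was 0.373 (number 1), 0.1999 (number 3), 0.235 (number 10), 0.599 (number 12) and 0.302 (number 13), and at most 0.125 between unlike numbers. All 5 lay above that highest value between unlike numbers, so values with the number as a block stand beside those of the organ fit, which has no block. Pairing comes from this check, not from the labels.

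Named clonotypes are the largest of each member per organ and treatment, by mean share of TRB counts, and those found in the most numbers. The members, lists and rules were chosen with earlier results of these data known. The pairs of V and J segments, the near-identical clonotypes and the TRBJ1-6 family were chosen after their values were seen. Alternatives covered the tool, filter, normalization, library unit, distinct clonotypes, expanded clonotypes, organ and each number left out.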

Additional observations from a re-analysis of the deposited data

Results flagged for a closer look

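Of 14 sets of values checked for a sample far from the others, 2 held one. A chance rate of about 1 in 20 holds only for continuous values. TRBV30 in the brain samples of trametinib was 0.787% of TRB counts in 1 sample of number 13 and 0% in the other 3, on 5 of 635 counts. In the ovary of number 13 it was 0.915% and 0.817%. With the other 3 brain samples at 0, the check flags any value above 0, so that chance rate does not apply to this set. Counts per TRBV31 clonotype relative to other TRBV clonotypes were 1.26 log2 units in concurrent number 6, where the next highest number stood at 0.12. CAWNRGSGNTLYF held 61 of the 92 TRBV31 counts there, in brain samples only, since number 6 has no ovary sample among those analysed.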

How the results depend on the processing

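Of 577 alternative values for 37 results, 507 kept their direction and side of the threshold (or moved little), 17 lost a call, 3 gained one, 17 changed sign and 33 moved. Some of the lost calls came from settings with 5 numbers, where an exact p cannot fall below 0.05. The cause was not tested where none is named.
Counts of V segments called by edgeR rose above 0 in a few settings, for segments other than TRBV31 and TRBV30. With each part as its own library they were 1 over the 5 treatments, 1 for the lead-in combination over the concurrent combination and 9 between organs. Without a filter they were 1 over the 5 treatments and 1 for the lead-in combination over the concurrent combination and over the lead-in. DESeq2 gave 6 between organs. Leaving out 1 number gave 0 to 2 for the lead-in combination over the concurrent combination and 0 to 1 for the lead-in over untreated. By distinct clonotypes, TRBV31 usage turned to -0.37 for the concurrent combination over trametinib and to 0.13 for the lead-in combination over the concurrent combination. Leaving out 1 number gave TRBV31 log2 values of -0.0051 to 1.199 for the lead-in over untreated, -0.26 to 0.70 for trametinib over untreated and -0.39 to 0.058 between organs. For TRBV30 these ranges were -0.46 to 1.56, -7.22 to 0.37 and 0.97 to 1.96, and 0.095 to 7.19 for the concurrent combination over trametinib, where -7.22 and 7.19, without number 13, are fitted against 0 trametinib counts and are no bounds. For the lead-in combination, TRBV31 ranged over -1.57 to -0.85 against the concurrent combination and -1.64 to -0.50 against the lead-in. As a replicate block, the number gave 0.93 for TRBV30 and -0.15 for TRBV31 between organs, and changed no call.
For the TRBJ2 share, 0 segments were called without single-count clonotypes, 0 in ovary only, 2 by counts and 0 to 7 with 1 number left out. In ovary only, 5 numbers cannot give an exact p below 0.05. No call was therefore possible there for the TRBJ2 share, counts per clonotype or CDR3 length. The TRBV31 difference lost its call with 10 clonotypes required (-6.43), without single-count clonotypes (-5.79), after merging near-identical clonotypes (-5.96, added after seeing the data) and in ovary only (-3.48), was -15.7 by counts, and was -7.80 to -6.01 with 1 number left out. The TRBV30 difference turned to 0.088 with 10 clonotypes required and to 0.94 after merging, and was -8.03 to 1.12 with 1 number left out. TRBV31 minus TRBV30 turned to 0.42 in brain only and was -8.24 to 1.57 with 1 number left out. Over the 5 treatments, 0 to 1 segments were called with 1 number left out.
For counts per clonotype, 4 segments were called with 10 clonotypes required, 2 without single-count clonotypes, 2 without the largest clonotype, 0 in ovary only and 0 to 2 with 1 number left out. The TRBV30 value turned to -0.28 without the largest clonotype and was -0.17 to 0.34 with 1 number left out.
For CDR3 length, 3 segments were called in brain only and 0 in ovary only. The TRBV30 difference lost its call with 10 clonotypes required (-1.005, 5 numbers) and in ovary only (-1.03), where 5 numbers made a call impossible. It was -1.21 to -0.98 with 1 number left out. The TRBV31 difference gained one with 10 clonotypes required (-0.33) and without single-count clonotypes (-0.43), and was -0.37 to -0.23 with 1 number left out.
The comparison of TRBV30 with other TRBV names gave no value in brain only, where it had 5 numbers, nor did its usage by distinct clonotypes over the treatments in brain, nor TRBV31 over the 5 treatments with 10 clonotypes required or, for at least 1 measure, without single-count or largest clonotypes. Depth limits TRBV30 in brain, where a library held 0 to 27 counts.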
